A study of Mus musculus with 18 samples.

Results

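The constitutive proteasome subunits were followed in C3H10T1/2 cells, a mouse embryonic fibroblast line that can be turned into fat cells. Members were the genes named Psma, Psmb, Psmc, Psmd or Psme with a number, without the immunoproteasome subunits Psmb8, Psmb9 and Psmb10. The rule found 37 genes among the 8252 genes that the array names by a single symbol, and each was read from its brightest probe set. They comprised 7 alpha and 7 beta subunits of the core, 6 ATPases and 14 other subunits or assembly factors of the regulatory particle, and 3 activators. Psme2, the partner of Psme1, has probes that carry a second gene symbol and was not used here.

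In every group the cells had been confluent for 24 h and without fresh serum for 72 h at harvest, and the mRNA of 6 cultures was pooled for each array. The groups were IDMB + EGF + TCDD, IDMB + EGF, IDMB + TCDD, IDMB, EGF+TCDD, EGF, TCDD and UT. IDMB is an adipogenic mix of 10 µg/mL insulin, 1 µM dexamethasone, 0.5 µM IBMX and 1 µM BRL49653 (a PPARG agonist), given for 24 h. Cells received EGF, a growth factor, for 24 h at 10 nM. TCDD, a ligand of the aryl hydrocarbon receptor, was present for 72 h at 10 nM. The labels give no meaning for UT, which was taken as cells without any of the 3 treatments. IDMB and UT had 3 arrays each and the other groups 2, so the 18 arrays fill every combination of the treatments. Nothing in the labels says that the pools of a group came from separate experiments, so p values measure the spread between these arrays, which may be technical.

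The proteasome is the cell's main machine for destroying proteins tagged with ubiquitin. A barrel-shaped core of alpha and beta rings holds the cutting sites, and a regulatory particle recognises the tagged protein, removes the ubiquitin, and unfolds and feeds the chain inward with a ring of ATPases. Other caps can bind the core in place of the regulatory particle. During immune signalling the cutting subunits are exchanged in new particles: Psmb8 takes the place of Psmb5, Psmb9 that of Psmb6 and Psmb10 that of Psmb7.

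Promoters are shown for genes on which the results turn: Psmd14, whose call was the steadiest, Psme1, which fell most among members in IDMB against UT, and Psmb5, a cutting subunit. The windows run from 250 bases before to 50 bases after the gene start (RefSeq, GRCm38.p6), and capitals mark a match to a motif named after each.
Psmd14, chr2:61711444-61711743, plus strand, CCAAT on either strand: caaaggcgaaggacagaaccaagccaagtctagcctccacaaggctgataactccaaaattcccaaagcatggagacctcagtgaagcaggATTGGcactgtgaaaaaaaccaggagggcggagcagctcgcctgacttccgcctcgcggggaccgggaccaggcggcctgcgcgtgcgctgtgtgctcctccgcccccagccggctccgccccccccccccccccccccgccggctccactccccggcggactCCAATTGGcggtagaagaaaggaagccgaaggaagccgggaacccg
Psme1, chr14:55578244-55578543, plus strand, GAAANNGAA on the minus strand: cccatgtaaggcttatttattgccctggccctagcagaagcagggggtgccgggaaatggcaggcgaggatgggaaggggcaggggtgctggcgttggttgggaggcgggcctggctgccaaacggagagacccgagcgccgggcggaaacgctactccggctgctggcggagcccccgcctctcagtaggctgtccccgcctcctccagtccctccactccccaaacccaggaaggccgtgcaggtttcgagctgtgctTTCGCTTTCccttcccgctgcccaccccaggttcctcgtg
Psmb5, chr14:54617946-54618245, minus strand, TGACNNNGC on the plus strand of the window: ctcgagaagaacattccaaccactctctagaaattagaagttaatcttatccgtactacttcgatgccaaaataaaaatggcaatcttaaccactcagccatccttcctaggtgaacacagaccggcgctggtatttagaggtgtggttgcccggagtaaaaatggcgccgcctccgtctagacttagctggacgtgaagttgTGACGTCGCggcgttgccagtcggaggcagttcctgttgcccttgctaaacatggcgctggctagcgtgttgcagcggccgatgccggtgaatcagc

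Promoter windows were found for 31 of the 37 genes (33 windows), and both strands were searched. TGACNNNGC, the core of the element bound by NFE2L1 and NFE2L2, was present in 6 of the 33 windows (18.2%), against 12.4% of 32851 windows of the same length. These 6 windows belong to Psmb5, Psmb6, Psmc6, Psmd9, Psmd12 and Psme4. CCAAT, bound by the NF-Y factor, was present in 12 of 33 (36.4%), against 37.4% of windows. GAAANNGAA, the core of the interferon response element, was searched after the immunoproteasome values were seen and was present in 6 of 33 (18.2%), against 8.56% of windows. The motifs do not overlap one another in the printed windows, apart from the paired CCAAT copies near the Psmd14 start. A match describes letters in the window and was not tested for binding.

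Of the 37 members, 35 passed the filter, which kept probes whose highest group mean reached the median of all values (intensity 849.9). The members that failed were Psmc4, an ATPase (38.5 to 517.8 over the 18 arrays), and Psmd2, a scaffold of the regulatory particle (87.8 to 402.9). The other members were mostly bright: alpha subunits such as Psma3 ran from 25801 to 37991 and Psma1 from 1788 to 3731, and among the beta subunits Psmb4 ran from 18286 to 29465. Among the ATPases Psmc6 ran from 15718 to 35841, and among the other subunits Psmd6 ran from 8356 to 14111. Psmd12, a lid subunit, lay on both sides of the filter (482.7 to 2664). Probe sets differ in how strongly they respond, so these ranges are not ranked against each other. The brightest sets of Psma3, Psmb4, Psmb5, Psmb7, Psmc3 and Psmd12 are marked by the array maker as possibly reading related sequences, and their values are less certain for that reason. The Psmd9 set carries another mark of the maker, not the one for related sequences, and is also taken as less certain.

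**Figure D1:**
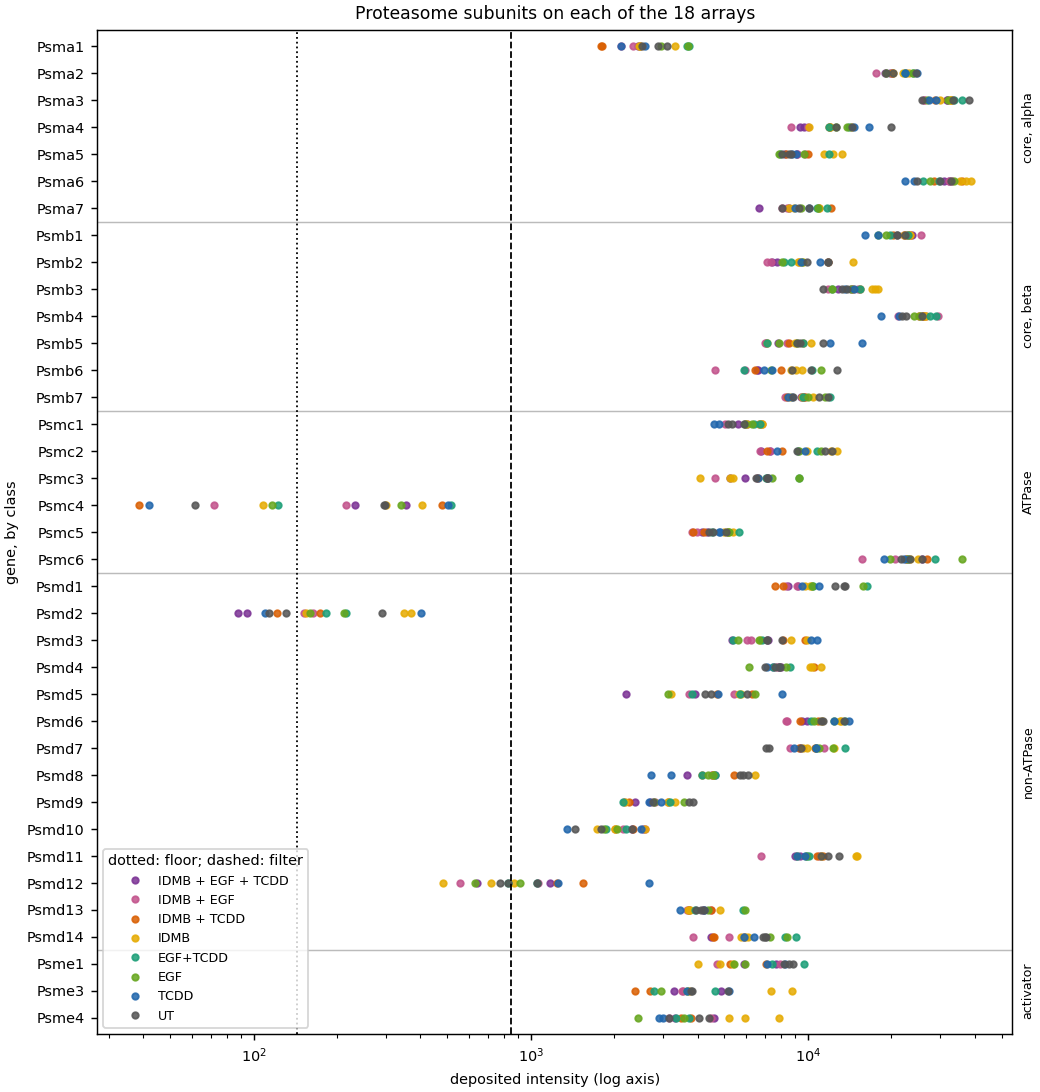
Deposited intensity (log axis) of each of the 37 genes on the 18 arrays, coloured by group, with the floor dotted and the filter dashed. Psmc4 and Psmd2 lie below the filter, and Psmd12 lies on both sides of it.

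Fibroblast markers fit the label in part. Col1a1 was at least 68469 and Col1a2 at least 55262 on every array, whereas Vim was dim (102.7 to 938.6). Col3a1 was at least 25408, S100a4 at least 34247 and Pdgfrb at least 1224, while Thy1 ran from 91.7 to 5605. Of the 7 macrophage markers, Adgre1, Itgam and Ptprc were at or under the floor of 143.5 on 16 of 18 arrays, Lyz2 on 15 and Cd68 on 1, while Cd14 and Csf1r (179.7 to 1517) were above it on all. The epithelial marker Krt19 was at or under the floor on 18 of 18 arrays, Epcam on 14, Krt8 on 7 and Krt18 on 3, while Cdh1 was above it on all. Of the muscle markers, Acta1 was at or under it on 13 arrays, Des on 2 and Ckm on 1, while Myod1 and Myog were above it on all. Of the endothelial markers, Cdh5 was at or under it on 16 arrays, Vwf on 15, Tek on 3, Kdr on 2 and Pecam1 on 1. Values from whole cultures cannot tell fewer cells of a type apart from less RNA per cell. Array medians ran from 793.35 to 935.7.

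Subunit mRNA moved little. Over the 8 group means, the members tested spanned a median of log2 0.66 (1.58-fold), and 5 of 35 (14.3%) spanned more than log2 1, against a median of log2 0.91 (1.88-fold) and 43.1% over all 7134 probes tested. The 5 were Psmd12, Psme3, Psme4, Psmd5 and Psma1. The members are mostly bright, whereas the probes tested reach down to the filter, and dim probes can span more through noise. No set of probes matched for brightness was compared. The proteasome level of an array, taken as the mean over the 35 members of their log2 values centred on their own means, ran from −0.20 to 0.19, a 1.31-fold span. It was −0.15 and −0.10 in IDMB + EGF + TCDD, −0.16 and −0.20 in IDMB + EGF, and 0.10, 0.09 and 0.09 in IDMB, against 0.12, 0.09 and −0.01 in UT. The 4 arrays with IDMB and EGF together were the lowest of the 18, and EGF replicate 1 came next at −0.10. These 4 arrays also had high 3' over 5' probe set ratios of Actb, a measure of RNA quality taken up below. The ratio was 2.24 to 3.8 on them, against 1.23 to 2.25 on the other arrays. The part of RNA quality in their low level was not tested. In EGF+TCDD the level was −0.03 and 0.19, and in EGF −0.10 and 0.13, so the arrays of either group lay further apart than the group means. No test was made on this level, since it is an average over the members.

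**Figure D2:**
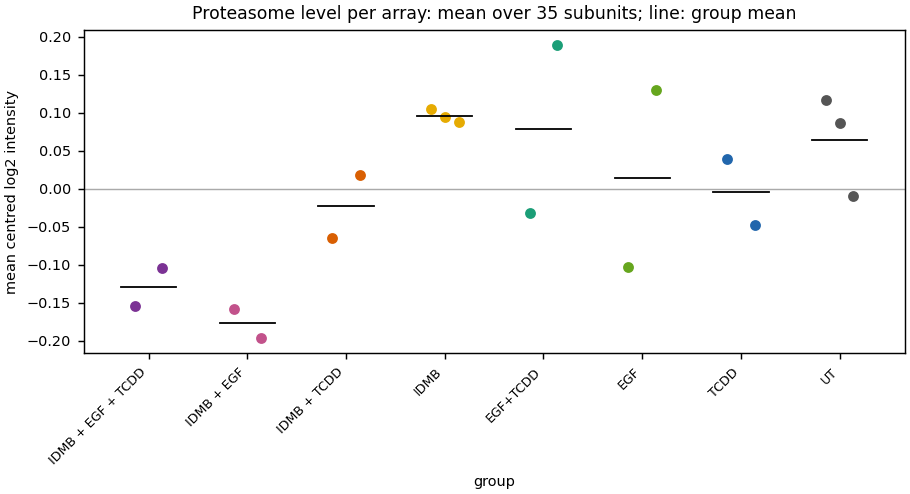
Proteasome level of each array by group (mean centred log2 intensity over 35 members, points: arrays, lines: group means). The values run from −0.20 to 0.19, and the IDMB + EGF arrays are among the lowest.

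Across the 4 backgrounds (with and without EGF and TCDD), IDMB lowered 9 of the 35 members and raised 3. Each of the 9 comparisons used limma with adjustment over all 7134 probes, and a probe is called when its adjusted p is under 0.05. Over all probes the mean IDMB effect was called higher for 15.5% and lower for 18.6%, so the members' share of 34.3% called is near the background. The median over members was log2 −0.13, against −0.04 over all probes. Scaling every array to the same median gave 4 members higher and 5 lower.

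Psmd14, the enzyme of the regulatory particle that cuts the ubiquitin chain from the substrate, changed most. With IDMB its intensity ran from 3837 to 6061 with a median of 5187 (n = 9), against 5865 to 9074 with a median of 7079 without IDMB (n = 9). The ranges meet at their edges, and within each of the 4 backgrounds every IDMB array lay below every array without IDMB. The mean change was log2 −0.56, 1.47-fold lower (SE 0.0841, limma adjusted p = 8.54e-05). Psmd14 was the only named member whose call held in all 18 fits with an array left out and in all 10 other settings tried.

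The other members lowered by IDMB came from every class of the particle. Psmd1, a scaffold of the regulatory particle, ran from 7640.3 to 10369.7 with a median of 9119 with IDMB, against 9534 to 16277 with a median of 12499 without it (log2 −0.47, SE 0.0998, limma adjusted p = 0.00171). Psma4, an alpha ring subunit, ran from 8656 to 14291 with a median of 10067, against 11952 to 19872 with a median of 14096 (log2 −0.42, limma adjusted p = 0.00344). Both ranges overlapped between arrays with and without IDMB. The ATPase Psmc3 (log2 −0.41, adjusted p = 0.00404) and the alpha subunit Psma1 (log2 −0.40, adjusted p = 0.0053) also fell. Another probe set of Psmc3 gave log2 −0.50 (adjusted p = 0.000339), and its remaining tested set gave log2 −0.19 and was not called (adjusted p = 0.365). Smaller decreases were called for the activator Psme1 (log2 −0.36), the ATPase Psmc2 (log2 −0.29), the cutting subunit Psmb5 (log2 −0.27) and the lid subunit Psmd6 (log2 −0.26), the last named after its value was seen. Psmb5's other probe set gave log2 −0.08 and was not called. With 1 array left out, the call held in 12 of 18 fits for Psme1 (highest adjusted p = 0.0709), 15 for Psmc2 (0.0606) and 5 for Psmb5 (0.127).

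IDMB raised 3 members across the backgrounds. Psme4, a cap found mainly in the nucleus, ran from 3149 to 7881 with IDMB and from 2444 to 4386 without it (log2 0.37, SE 0.123, limma adjusted p = 0.0275). The alpha subunit Psma6 (log2 0.28, adjusted p = 0.014) and the beta subunit Psmb1 (log2 0.24, adjusted p = 0.014) rose too. Another probe set of Psmb1 gave log2 0.17 (adjusted p = 0.159), not called. The Psme4 call held in 12 of 18 fits with 1 array left out (highest adjusted p = 0.0812).

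Against UT alone, IDMB raised 4 members and lowered 1 (n = 3 against 3, with background calls of 6.66% higher and 7.42% lower). Psme1, which binds the core as a cap together with Psme2, read 4000.4, 4803 and 5349.5 in IDMB, against 8178, 8521 and 8864 in UT. The groups did not overlap, and the change was log2 −0.86, 1.82-fold lower (SE 0.197, limma adjusted p = 0.00675). With IDMB + EGF against EGF the same gene gave log2 0.11 (SE 0.242), and with IDMB + EGF + TCDD against EGF+TCDD −0.34 (SE 0.242). Psme4 was 1.63-fold higher (log2 0.70, adjusted p = 0.0326), the alpha subunit Psma5 log2 0.55 (adjusted p = 0.0222), the ubiquitin receptor Psmd4 log2 0.49 (adjusted p = 0.0317) and the beta subunit Psmb3 log2 0.45 (adjusted p = 0.0388). The nuclear activator Psme3 read 3733, 7356 and 8793 in IDMB, against 3794, 3803 and 5143 in UT, and was not called (log2 0.57, adjusted p = 0.225). Each of the 4 increases was lost without UT replicate 2, UT replicate 3 or IDMB replicate 2, with the highest adjusted p at 0.132 for Psme4, 0.0843 for Psma5, 0.103 for Psmd4 and 0.154 for Psmb3. The Psme1 decrease held in all 18 such fits and was lost only when all probe sets of a gene were averaged (log2 −0.41). The other Psme1 probe set was dim (mean log2 7.31) and failed the filter, so averaging with it shrinks the change.

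**Figure D3:**
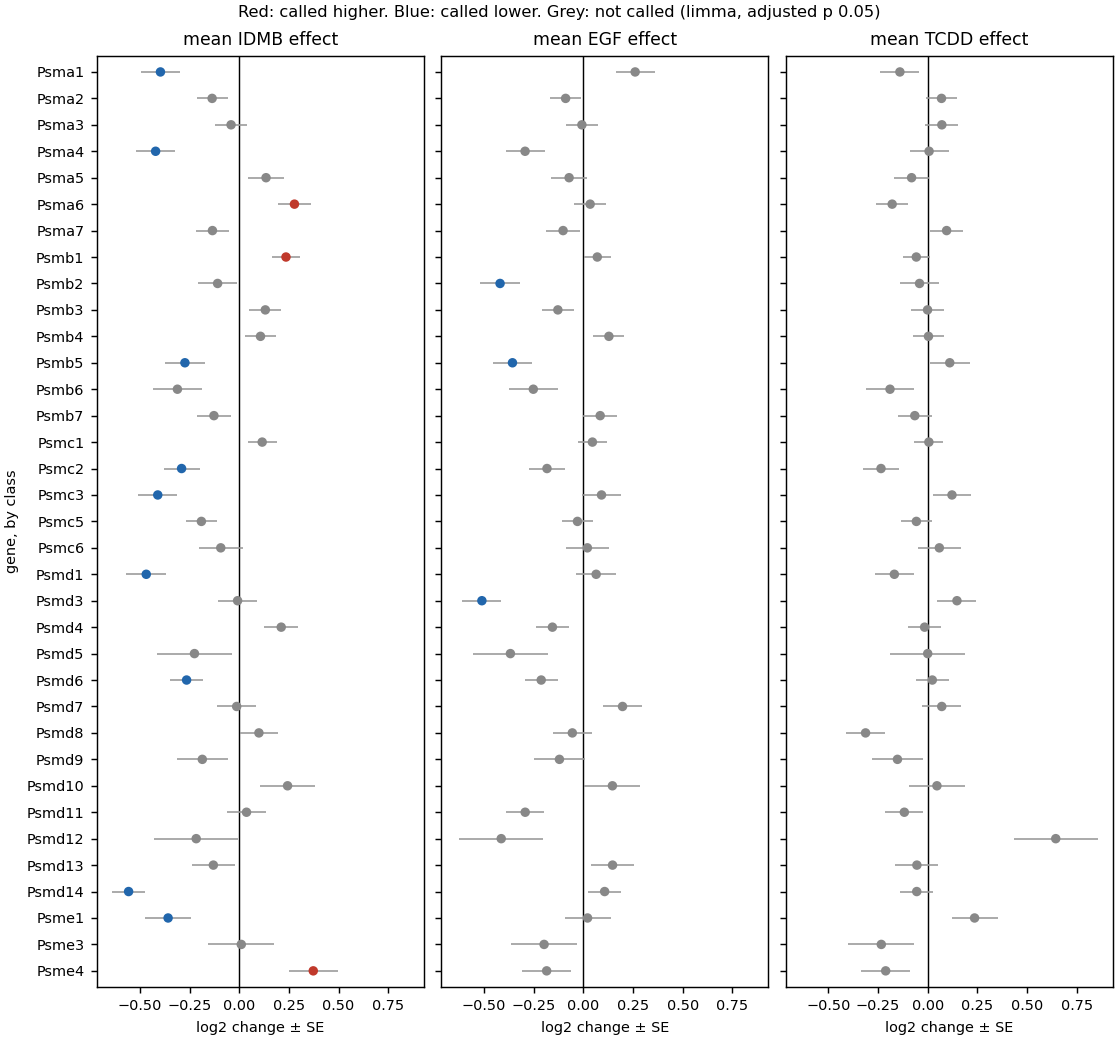
Log2 change with its standard error for the 35 members tested, by class, in the mean IDMB, EGF and TCDD effects. IDMB has 3 members called higher and 9 lower, EGF 0 higher and 3 lower, and TCDD none.

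Of the measures of RNA quality, that from Actb moved with IDMB. The 3' over 5' probe set ratio of Actb, which rises when the RNA is broken or copied incompletely, ran from 1.8 to 3.8 with IDMB and from 1.23 to 1.93 without it. The same ratio of Gapdh overlapped widely, at 1.05 to 2.86 with IDMB and 0.854 to 2.71 without it. With the Gapdh ratio as a covariate, Psmb5 was the only named member refitted that lost its mean IDMB call. With the Actb ratio as a covariate, the mean IDMB effect called 1 member (Psmd14) and IDMB against UT called 1 (Psme1). The Actb ratio hardly overlapped between arrays with and without IDMB, so this fit cannot separate the ratio from IDMB. Calls lost in it are not read as due to RNA quality or to IDMB. Fibroblast markers also fell with IDMB, 4 of 6 tested, and their summed level ran from 221300 to 396258 with IDMB and from 233625 to 454637 without it. Adipocyte markers rose, 3 of 4 tested, with sums of 1672.7 to 9711 with IDMB and 1151 to 3441 without it. The part of these shifts in the member changes was not tested.

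EGF lowered 3 members and raised none across the backgrounds, with background calls of 7.06% higher and 6.04% lower. Psmd3, a lid subunit, ran from 5319 to 7168 with a median of 6149.9 with EGF (n = 8), against 6721 to 10816 with a median of 8410.45 without EGF (n = 10). The change was log2 −0.51, 1.43-fold lower (SE 0.0983, limma adjusted p = 0.00397). Psmb2, a beta subunit without a cutting site, ran from 7141.5 to 9510.1 with EGF, against 9206 to 14491 without it (log2 −0.42, limma adjusted p = 0.0129). For both genes the ranges overlapped only at their edges. Psmb5 gave log2 −0.36 (adjusted p = 0.0281), whereas its other probe set gave log2 0.29 (SE 0.238, not called), so the direction for Psmb5 rests on 1 probe set. Its call held in 12 of 18 fits with 1 array left out. The cutting subunits Psmb6 (log2 −0.25, adjusted p = 0.192) and Psmb7 (log2 0.08, adjusted p = 0.56) were not called.

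The cell cycle genes used for comparison rose with EGF in 15 of 18 tested, with a median of log2 0.92 over the list, whereas the median over the proteasome members was −0.07. The ratio of 3' to 5' probe sets of Gapdh ran from 1.43 to 2.86 with EGF and from 0.854 to 1.73 without it. With that ratio, or that of Actb, as a covariate, no member was called for EGF. The Gapdh ratio was mostly higher with EGF, so the fit with it cannot separate the ratio from EGF. EGF against UT called 0 of 35 members (6.17% of probes in either direction), and 3 had an unadjusted p under 0.05.

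**Figure D4:**
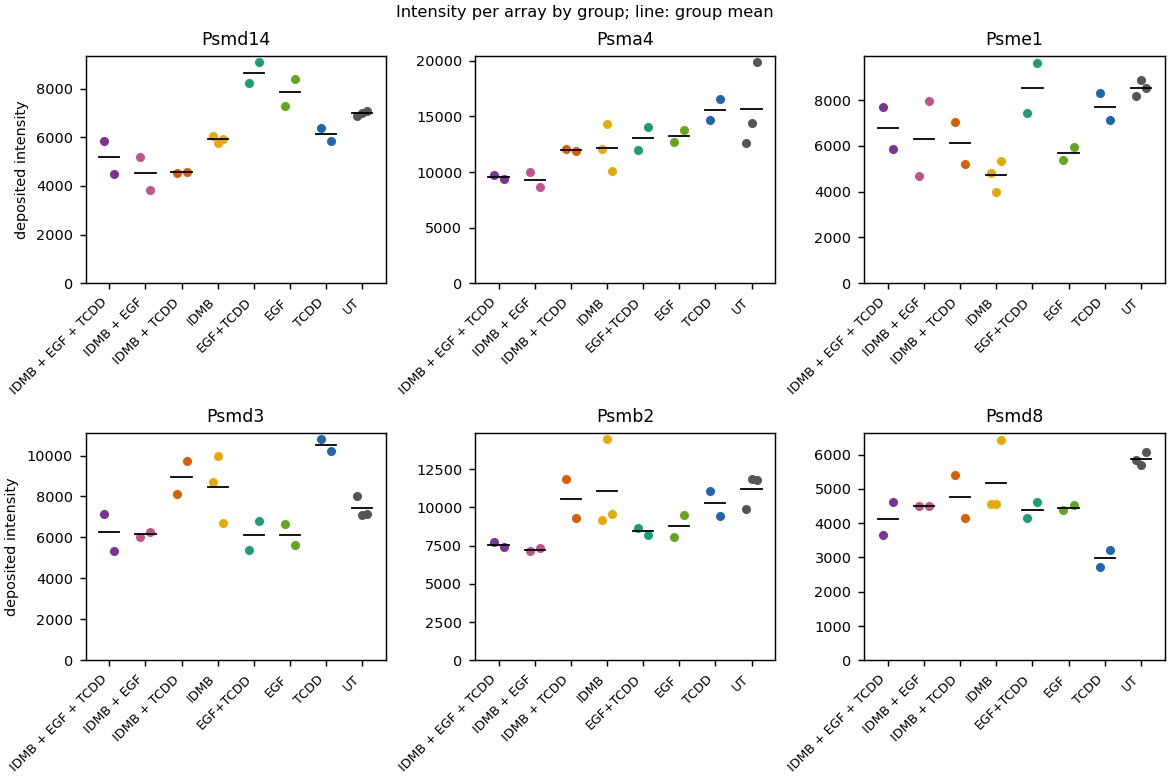
Deposited intensity on each array for Psmd14, Psma4, Psme1, Psmd3, Psmb2 and Psmd8, by group (points: arrays, lines: group means). Psmd14 is below its partner in every background with IDMB, and Psmd8 is lowest in the TCDD group.

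TCDD called 0 of the 35 members across the backgrounds by limma, while 5.54% of probes were called in either direction, and 4 members had an unadjusted p under 0.05. The largest estimate was the dim lid subunit Psmd12, at log2 0.64 (adjusted p = 0.094). Against UT, TCDD lowered 1 member, Psmd8, a lid subunit, which read 3220.2 and 2727 in TCDD, against 5689.8, 5850.1 and 6078 in UT. It was 1.98-fold lower (log2 −0.99, SE 0.184, limma adjusted p = 0.00589), where 3.88% of probes were called higher and 3.8% lower. Scaling to the same medians called 175 probes higher and 308 lower, against 277 and 271. Psmd8 was not called without TCDD replicate 2 (adjusted p = 0.0699) or with the Gapdh ratio as a covariate, and in EGF+TCDD against EGF it gave log2 −0.02 (SE 0.202).

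Across the backgrounds the immunoproteasome subunits, which are not members, rose with TCDD in 3 of 3 (2.71% of probes were called higher). Without TCDD, Psmb8 reached at most 848.4 and Psmb9 at most 582.1, under the filter of 849.9. Both were therefore tested only because of their levels in groups with TCDD. This selection favours a rise, so the direction of these genes was partly set by the filter. Psmb10 ran from 1237 to 2662.7 without TCDD, above the filter. Psmb9 ran from 400.4 to 1378 with TCDD (n = 8), against 118.2 to 582.1 without TCDD (n = 10), at log2 2.08 (SE 0.338, limma adjusted p = 0.00171). Psmb8 rose by log2 1.41 (adjusted p = 0.000879) and Psmb10 by log2 0.74 (adjusted p = 0.00408). Against UT alone, TCDD called 0 of the 3, where 3.88% of probes were called higher. The estimates were log2 0.86 for Psmb8, 2.05 for Psmb9 and 0.86 for Psmb10 (limma adjusted p = 0.205, 0.0616 and 0.0556). Psmb8 was called lower with IDMB (log2 −0.77, adjusted p = 0.0104) and EGF (log2 −0.76, adjusted p = 0.0282), while Psmb9 and Psmb10 were not called for either. Psmb9 was under the floor on UT replicate 1 and IDMB replicate 1, and Psmb8 on IDMB + EGF replicate 2, and there the floor stands in for the value in these changes and in the ratios below. Of 2 macrophage markers tested, Cd14 rose with TCDD (log2 0.47) and Csf1r was not called (log2 0.46, adjusted p = 0.424). The summed level of the 7 on the array was 5948 to 12653 with TCDD and 5095 to 7640 without it. Cd14 alone ran from 3354 to 10450 over the 18 arrays and no other marker of the list exceeded 1517, so the sum mostly repeats Cd14. Adgre1, Itgam, Ptprc and Lyz2 were at or under the floor on at least 15 of 18 arrays and Cd68 on 1 (its median was 404.2). The part of this signal in the immunoproteasome changes was not tested.

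Each immunoproteasome subunit was set against the subunit it replaces, as the change of their log2 ratio within arrays. These 9 tests (3 pairs, 3 treatments) were chosen after the values were seen and used all relabellings of arrays within backgrounds, 2-sided, with adjustment over the 9. With TCDD the ratio of Psmb9 to Psmb6 rose 4.81-fold (exact permutation p = 0.000556 over 3600 relabellings, adjusted 0.0025). That of Psmb8 to Psmb5 rose 2.46-fold (exact p = 0.00139, adjusted 0.00417), and that of Psmb10 to Psmb7 1.75-fold (exact p = 0.000556, adjusted 0.0025). Each ratio rose in 4 of 4 backgrounds, and arrays with and without TCDD were separate in 3 of 4. With IDMB the ratio of Psmb8 to Psmb5 changed by log2 −0.50 (exact p = 0.012, adjusted 0.0271), a call that was lost with quantile normalization and in 5 of 18 fits with 1 array left out (highest adjusted p = 0.1). A change in a ratio shows unequal change of the 2 genes, not that either stayed level. With TCDD the mean change was log2 0.11 for Psmb5, −0.19 for Psmb6 and −0.07 for Psmb7, none called by limma. Psmb5's other probe set gave log2 0.39 with TCDD (SE 0.238, limma adjusted p = 0.399), and no ratio was taken with it. The ratios reuse the immunoproteasome values of the limma calls above and are no separate support for them. Those of Psmb8 and Psmb9 also rest on genes that passed the filter only through groups with TCDD.

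**Figure D5:**
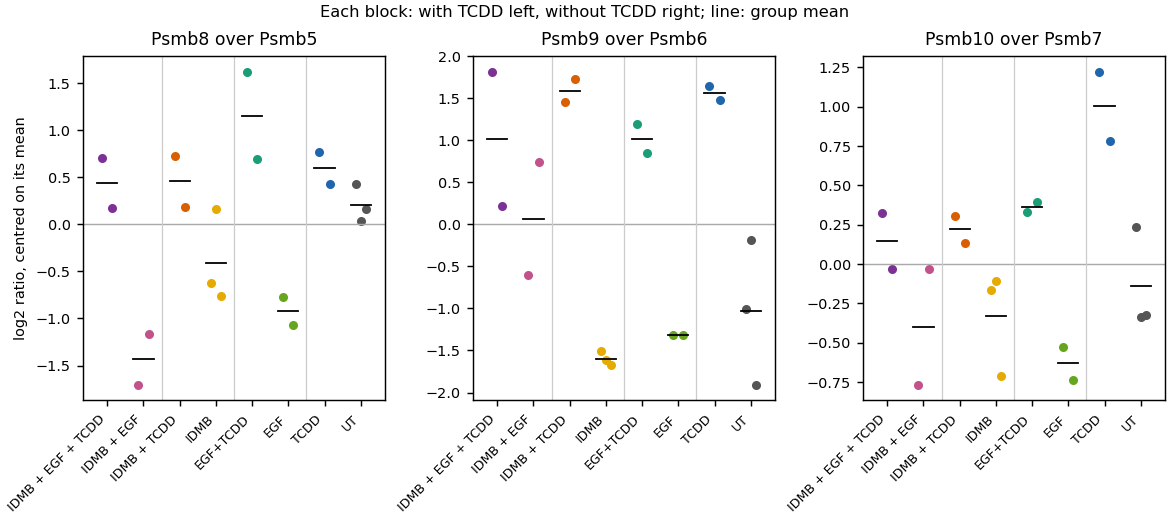
Log2 ratio of each immunoproteasome subunit to the subunit it replaces, centred on its mean, by group (points: arrays, lines: group means). In each of the 4 backgrounds the group mean with TCDD is above its partner without TCDD.

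No interaction was called for any member by limma with all 18 arrays and no block. For EGF by TCDD, 2 members were called with the replicate number as a block and 1 without IDMB replicate 1. For IDMB by EGF, 28 of 35 members had a negative estimate with a median of log2 −0.26, against 0.01 over all probes, of which 51.2% were positive and 0.126% called. In IDMB + EGF against IDMB 29 of 35 were negative, with a median of log2 −0.26. The arrays with IDMB and EGF together were also those with high Actb ratios. In the other settings tried, among them this ratio as a covariate, the IDMB by EGF median over members lay between log2 −0.33 and −0.22. For IDMB by TCDD 18 of 35 were positive, against 47.8% of probes (0.112% called), and for EGF by TCDD 26 of 35, against 50.7% (4.47% called). Members with an unadjusted p under 0.05 numbered 7 for IDMB by EGF, 1 for IDMB by TCDD and 7 for EGF by TCDD.

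The genes that build, feed and regulate the proteasome were called in both directions. The shares of all probes to read these counts against were 15.5% higher and 18.6% lower for IDMB, 7.06% and 6.04% for EGF, and 5.54% in either direction for TCDD. Of 6 assembly genes tested, EGF lowered Psmg3, an assembly chaperone (log2 −0.75, limma adjusted p = 0.0207), and raised Ecpas, an adaptor and quality factor (log2 0.47, adjusted p = 0.00469). Of 10 proteasome-bound receptors and deubiquitinases, IDMB raised Zfand5, a ubiquitin-binding protein (log2 1.36, adjusted p = 2.2e-07), and lowered 3: the deubiquitinase Usp14 (log2 −0.56, adjusted p = 0.00463) and the shuttle factors Ubqln1 (log2 −0.41) and Ubqln2 (log2 −0.32). EGF raised the deubiquitinase Uchl5 (log2 0.60, adjusted p = 0.0405). Among 9 regulators tested, TCDD raised Nfe2l2 (log2 0.86, adjusted p = 0.000231), as did EGF (log2 0.47), and IDMB raised Stat3 (log2 0.51) and Mafg (log2 0.54) and lowered Nfyb (log2 −0.42). TCDD raised 1 of 19 NRF2 targets, Nqo1 (log2 1.58, adjusted p = 4.71e-07), whereas IDMB raised 4, led by Gclc (log2 2.31), and lowered 8, among them Gsta4 (log2 −1.26). For p97 and its cofactors 0 of 8, and for the COP9 signalosome 0 of 9, were called in any of the 3 mean effects.

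Of 18 ubiquitin-conjugating enzymes IDMB called 3, a smaller share than over all probes: Ube2b rose (log2 0.87, adjusted p = 2.67e-05) and Ube2l6, which conjugates ISG15 (log2 −1.40, adjusted p = 0.00147), and Ube2s, an enzyme of mitotic degradation (log2 −1.02, adjusted p = 0.00102), fell. Uba7, the activating enzyme for ISG15, fell too (log2 −0.54, adjusted p = 0.0212). EGF raised Ube2t (log2 1.10) and Ube2c (log2 0.71) and lowered Ube2g1 (log2 −0.35), and TCDD called 0 of the 18. Of 8 subunits of the cytosolic chaperonin, IDMB raised Cct4 (log2 0.37) and lowered Cct6a (log2 −0.40), and TCDD lowered Cct4 (log2 −0.39).

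Member profiles were compared over the 18 arrays as a description; all points share arrays and scaling. The mean of the other members correlated with Psmc2 at r = 0.85, Psmb6 at 0.81 and Psmc5 at 0.71, and with Psmb1 at −0.23. Over the 595 pairs of members the median r was 0.18, and 81 pairs exceeded 0.5. Of 5398 other genes, the profiles most like the members' mean were Dnajc8 (0.82), Xpot (0.81), Ndufa9 (0.78), Strap (0.77), Slc39a6 (0.77), Mff (0.76), Hspd1 (0.76), Aimp2 (0.75), Prelid3b (0.75) and Dcaf13 (0.74). In all, 27 of the 5398 exceeded 0.7.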

How the data were processed

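Arrays of C3H10T1/2 cells (18, in 8 groups) were analysed from the deposited tables. The deposited values are intensities on a linear scale; each array's mean without its outer 2% lay between 2499.25 and 2499.36, and which program made them was not given in the sources used here. A floor of 143.5 (percentile 20 of the whole table) was applied before log2 was taken. The 66 control probes were left out, and probes were tested if their highest group mean was at least 9.73, the median log2 value, so 7134 of 12488 probes entered the fit. Gene symbols came from the array annotation: 10855 probes had 1 symbol, 396 several and 1237 none.

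limma 3.58.1 in R 4.3.3 fitted 1 mean per group over the 18 arrays with a variance trend (residual degrees of freedom 10), with Benjamini-Hochberg adjustment over 7134 probes and a threshold of 0.05. Precision is limited by the number of arrays. Mean effects average the 4 backgrounds with equal weight. The fit was tested on simulated data. Deviations of same-numbered arrays from their group means correlated at −0.10 to 0.44 (median 0.05), with 14 of 57 pairs over 0.1. The main fit used no replicate block, and whether equal numbers mark a shared batch was not tested. Members and gene lists were chosen with earlier results of these data known. Named members are the largest called changes (up to 8 each way per comparison), class extremes in signal, cutting subunits and activators; pathway genes are up to 3 called per list. Alternatives were other scalings, pseudocount, filters, variance, the replicate number as a block, 3' to 5' ratios, all probe sets of a gene, only the 2 groups compared and leaving out each array.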

Additional observations from a re-analysis of the deposited data

How the results depend on the processing

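The refits listed for named members leave out Psmd6, which was named after its value was seen. No called change of these members, or of a ratio, changed sign under any alternative run. Of their 20 called pairs of member and comparison, 10 held in every fit with an array left out, and 1 (Psmd14, mean IDMB effect) held in every other setting. Without 1 array in turn, members called ranged from 8 to 13 for the mean IDMB effect, 2 to 6 for mean EGF, 0 to 0 for mean TCDD, 1 to 6 for IDMB against UT, 0 to 1 for EGF against UT, 0 to 1 for TCDD against UT, and 0 to 1 for EGF by TCDD. The highest were without EGF+TCDD replicate 1 (13), IDMB replicate 1 (6 for EGF) and IDMB + EGF replicate 2 (6 for IDMB against UT); IDMB against UT called 1 without UT replicate 2 or IDMB replicate 2, 2 without UT replicate 3 or IDMB replicate 3, and 3 without UT replicate 1. With the Actb ratio as a covariate, the mean IDMB effect called 1, mean EGF 0 and IDMB against UT 1. With the Gapdh ratio, mean EGF called 0 and TCDD against UT 0. The Actb ratio was mostly higher with IDMB and the Gapdh ratio with EGF, so these fits cannot separate ratio from treatment there. IDMB against UT called 3 without the variance trend and 2 in the fit of only the 2 groups. With the replicate number as a block, mean TCDD called 1, EGF against UT 1 and EGF by TCDD 2, and the mean IDMB effect called 11. Psmb5, mean IDMB, was called in 5 of 18 fits and 3 of 10 other settings. The TCDD ratio changes held in all 18 fits (log2 2.07 to 2.47 for Psmb9 over Psmb6, 1.18 to 1.42 for Psmb8 over Psmb5, 0.72 to 0.90 for Psmb10 over Psmb7). Causes of the other shifts were not tested.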
